A study of Mus musculus with 4 samples.

Results

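The accessible regions described here lie in 4 stretches of the mouse genome that hold multicopy gene clusters, and were found in naive CD4 T cells, the helper T cells that circulate before any encounter with antigen. ATAC-seq, which reads open chromatin from where a transposase can insert sequencing adapters, was run on 2 libraries labelled Ddx55 KO and 2 libraries labelled WT, all from cells of spleen and pLN. Ddx55 encodes a DEAD-box RNA helicase; the labels name neither the allele nor the age of the mice, and do not say whether the libraries came from separate animals. The values come from 1 joint list of 64525 regions (mouse build mm10, all 4 libraries together), which holds positions and no value per library, so KO was not compared with WT here. Depth per library is unknown, and no spread between replicates can be given. Of the marker genes of naive CD4 T cells, 8 of 8 had a region within 1 kb of a gene end, against 0 of 5 for B cells, 2 of 4 for myeloid cells and 1 of 2 for CD8 T cells. Over all protein-coding genes the share was 52.6%, so the myeloid and CD8 T cell counts lie near it.

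A region was a member when it overlapped by at least 1 bp one of 4 windows: chr4:145000000-148000000 (called Zfp here), chr5:14500000-16000000 (Speer4), chr8:19500000-22000000 (defensin) and chr1:85000000-85600000 (Sp100-like). The windows were selected on the number of regions per Mb in these same data, so density and spacing are descriptions without a test. Counts of genes or pseudogenes with a region depend on that density, so they are descriptions as well. Members numbered 692 of 64525 regions (1.07%): 297 in the Zfp window, 155 in the Speer4 window, 156 in the defensin window and 84 in the Sp100-like window. Each window was set beside its flanks, the 3 Mb on either side, which held 587 regions in all.

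Genes of these clusters arose by repeated duplication, so neighbouring copies can be nearly identical. Zfp genes of the KRAB zinc finger kind encode DNA-binding proteins, many of which silence retroelements, and Rex2 belongs to the same cluster. Speer genes encode glutamate-rich proteins known from the testis. Defa and Defb genes encode defensins, antimicrobial peptides of Paneth cells and other epithelia. Sp100, Sp110 and Sp140 encode nuclear body proteins induced by interferon. A short read from one of several near-identical copies may match more than 1 place. The sources used here do not give how such reads were treated, and their part in the results was not tested.

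The Speer promoters show how alike such copies are. The promoter of a gene is taken as the 300 bases from 250 before to 50 after its RefSeq start (build GRCm38.p6, which mm10 names), read 5′ to 3′ on the gene's strand; capitals mark bases covered by an accessible region. Speer4c lies on the minus strand at chr5:15714222-15714521 and was covered over all 300 bases by a region of 507 bp, while its close relative Speer4e, on the minus strand at chr5:14938426-14938725, had no region over its promoter.
Speer4c: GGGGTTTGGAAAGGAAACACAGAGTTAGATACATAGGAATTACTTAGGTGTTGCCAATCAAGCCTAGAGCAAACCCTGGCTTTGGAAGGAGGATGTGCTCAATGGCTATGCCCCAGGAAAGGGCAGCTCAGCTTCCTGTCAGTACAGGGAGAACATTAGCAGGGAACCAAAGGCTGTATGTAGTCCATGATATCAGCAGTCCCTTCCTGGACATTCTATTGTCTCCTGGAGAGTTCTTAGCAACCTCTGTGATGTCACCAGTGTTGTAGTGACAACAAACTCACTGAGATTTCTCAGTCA
Speer4e: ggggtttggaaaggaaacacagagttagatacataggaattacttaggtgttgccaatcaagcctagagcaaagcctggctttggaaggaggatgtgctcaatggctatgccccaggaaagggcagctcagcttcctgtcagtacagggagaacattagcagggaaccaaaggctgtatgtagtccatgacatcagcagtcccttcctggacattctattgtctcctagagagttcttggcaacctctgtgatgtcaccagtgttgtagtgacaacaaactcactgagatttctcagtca
The 2 sequences were 98.7% identical over 300 bases and differed by C74G, T191C, G228A and A239G, with the Speer4c base first and positions counted from 1 at the 5′ end. Neither held a CpG.

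A pair from the Zfp cluster differed in the same way. Zfp988, on the plus strand at chr4:147305354-147305653, had a region of 215 bp over 136 bases of its promoter. Zfp534, on the minus strand at chr4:147702582-147702881, had none, and the middle of the nearest region lay 16 kb from its start.
Zfp988: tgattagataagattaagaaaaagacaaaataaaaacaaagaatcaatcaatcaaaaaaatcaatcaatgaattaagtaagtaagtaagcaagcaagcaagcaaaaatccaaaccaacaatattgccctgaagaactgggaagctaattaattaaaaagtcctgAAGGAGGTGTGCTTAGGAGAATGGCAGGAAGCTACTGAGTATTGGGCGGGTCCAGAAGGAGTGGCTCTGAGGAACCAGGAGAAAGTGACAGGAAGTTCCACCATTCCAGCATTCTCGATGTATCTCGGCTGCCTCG
Zfp534: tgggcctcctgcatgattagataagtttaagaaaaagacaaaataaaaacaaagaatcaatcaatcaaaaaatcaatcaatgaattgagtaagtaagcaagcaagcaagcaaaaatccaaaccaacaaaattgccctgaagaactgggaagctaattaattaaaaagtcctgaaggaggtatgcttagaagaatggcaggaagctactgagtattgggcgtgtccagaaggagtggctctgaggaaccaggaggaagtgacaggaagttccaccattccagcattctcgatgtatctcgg
The promoters of this pair were 97.6% identical where they aligned. Sp110, on the minus strand at chr1:85598761-85599060, is shown as the promoter of a named Sp100-family gene that carried a region, of 411 bp, which covered 113 bases.
Sp110: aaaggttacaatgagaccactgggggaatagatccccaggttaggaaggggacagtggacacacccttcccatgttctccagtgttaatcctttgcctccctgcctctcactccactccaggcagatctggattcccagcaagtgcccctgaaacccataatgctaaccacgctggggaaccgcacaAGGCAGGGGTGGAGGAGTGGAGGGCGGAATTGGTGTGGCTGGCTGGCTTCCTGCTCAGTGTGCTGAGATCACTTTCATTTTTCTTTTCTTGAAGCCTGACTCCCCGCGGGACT

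Regions were dense in all 4 windows. The windows held 91.1 regions per Mb over 7.6 Mb, against 24.5 per Mb over the 24 Mb of flanks and 24.1 per Mb over all assembled chromosomes. The Sp100-like window was the densest at 140 regions per Mb, against 33.5 in its flanks. The Speer4 window had 103 per Mb against 8.83 in its flanks, the largest ratio to flanks of the 4 at 11.7. Its flanks were sparse beside the genome. Against the rest of the chromosome the ratio was 3.99 for Speer4, below 5.76 for Sp100-like. The Zfp window had 99 per Mb against 32.5, and the defensin window 62.4 against 23. The flanks of the Zfp window were themselves uneven, with 17 per Mb on the lower side and 48 on the upper side. From the first to the last gene of the family, density was 106 per Mb for Zfp and 165 per Mb for Speer4. Regions covered 3.63% of the windows and 0.982% of the flanks.

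**Figure D1:**
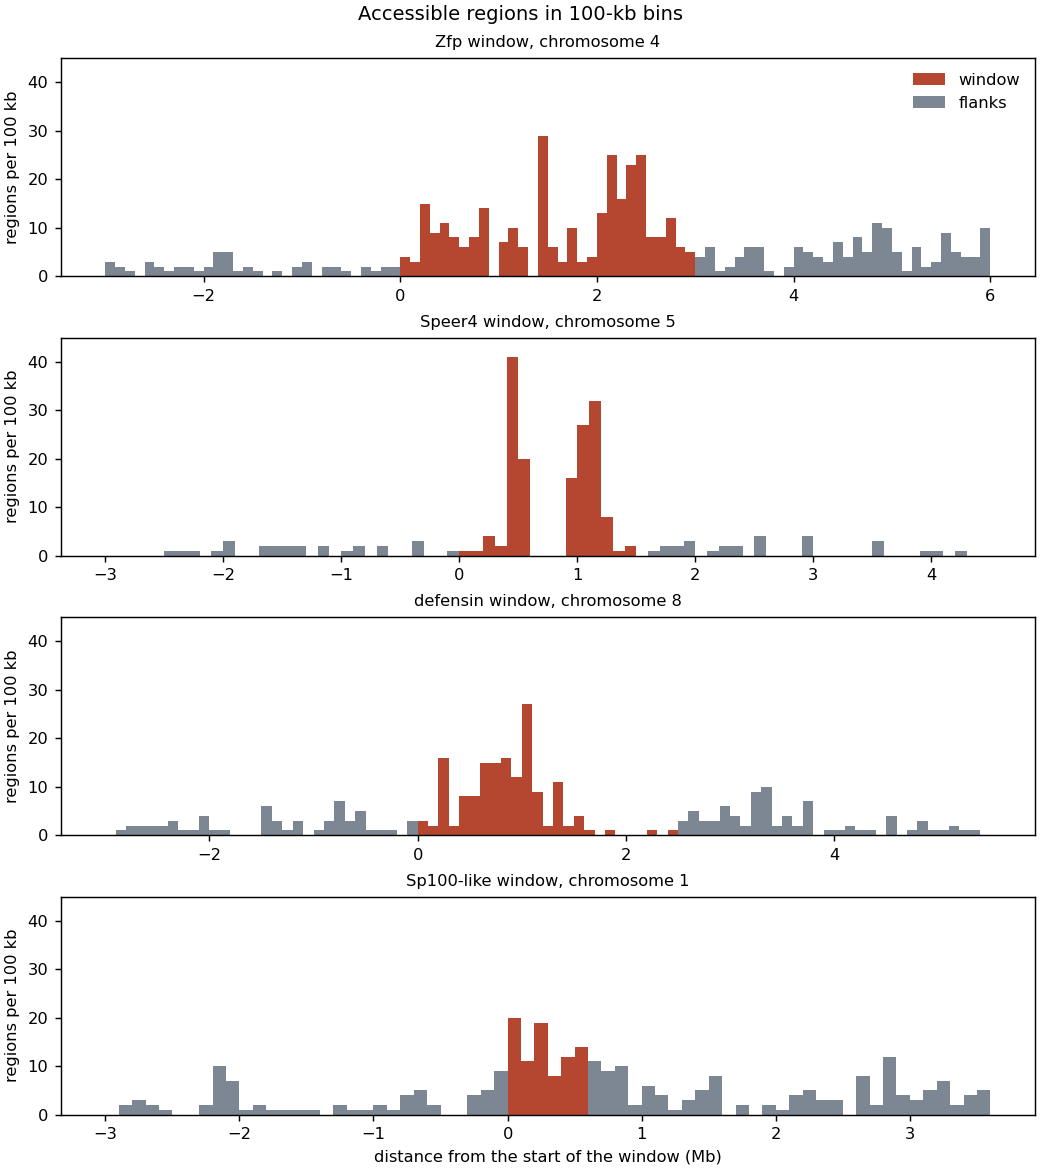
Number of accessible regions in each 100-kb bin (y axis) against the distance from the start of the window in Mb (x axis), for each window (red) and its flanks (grey). Speer4 regions form 2 blocks with 3 empty bins between them, and defensin regions end well before the upper edge of the window; bins reach 41 regions in the Speer4 window and 4 in its flanks.

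Within a window the regions were unevenly placed. Of the 18 bins of 100 kb in the genome with at least 17 regions, 11 lay in the windows and 7 outside. With bins of 16 regions included, 15 of 29 lay in the windows. The highest, chr5:14900001-15000000, held 41 regions. The Speer4 window had a stretch of 396144 bp without a region, chr5:15061738-15457881, in which the table places no gene. At the edges the windows were less distinct: the Zfp window had 4 regions in its first 100 kb against 2 in the 100 kb outside, and 5 in its last 100 kb against 4 outside. The Speer4 window had 1 against 1 at its lower edge and 2 against 0 at its upper edge. The defensin window had 3 against 3 and 1 against 3. The Sp100-like window had dense bins on both sides of its edges, with 20 regions against 9 at the lower edge and 14 against 11 at the upper edge.

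Neighbouring regions were closer together in the windows. The median gap was 3.01 kb in the windows against 17.9 kb in the flanks, and 176 of 688 gaps (25.6%) were at most 1 kb, against 39 of 579 (6.74%). The median gap was 2.08 kb against 52.4 kb for Speer4, 2.67 kb against 13.8 kb for Sp100-like, 3.28 kb against 25.2 kb for defensin and 3.93 kb against 13.8 kb for Zfp. Runs of 3 or more regions with gaps of at most 1 kb held 50 regions in 15 runs in the Zfp window, where the flanks had 0 such runs. The Speer4 window had 41 regions in 13 runs against 0 runs, the defensin window 27 regions in 9 runs against 6 regions in 2 runs, and the Sp100-like window 21 regions in 7 runs against 3 regions in 1 run. The closest neighbours were 5 bp apart, in the pseudogene 6820431F20Rik of the defensin window. The closest in each of the other windows were 19 bp apart in Gm7592 (Sp100-like), 35 bp in Zfp978 (Zfp) and 57 bp outside any gene (Speer4).

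**Figure D2:**
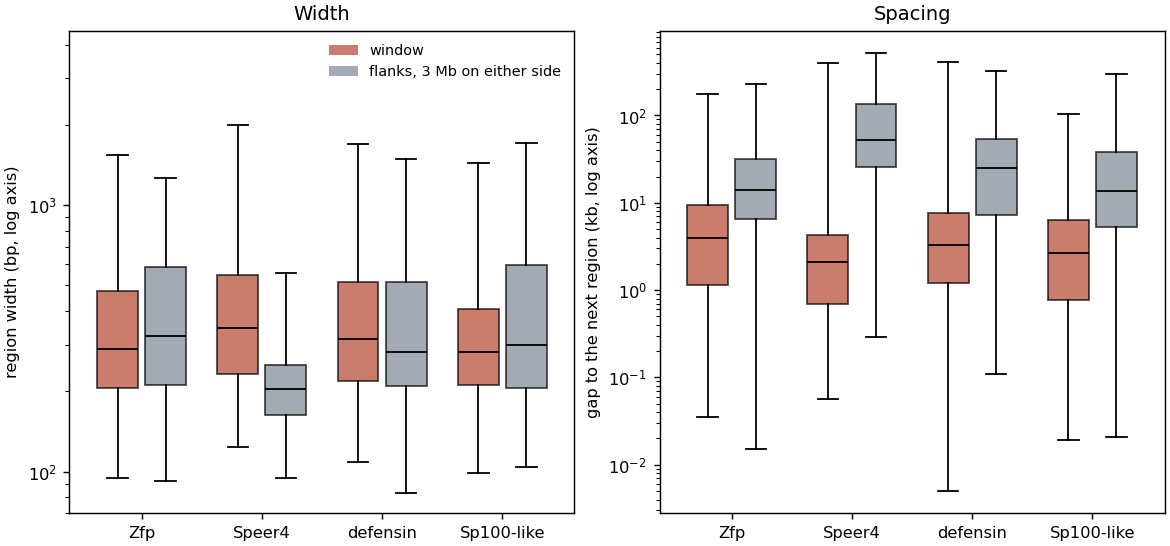
Width of regions in bp (left) and gap to the next region in kb (right), both on log axes, for each window (red) and its flanks (grey). Boxes give the quartiles and median and whiskers the lowest and highest value; every window has a lower median gap than its flanks, whereas median widths are close except for Speer4, at 347 bp against 205 bp.

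Width differed little between windows and flanks except at Speer4. The median was 304 bp in the windows and 283 bp in the flanks, a ratio of 1.07 that turned to 0.967 without the Speer4 window and to 0.959 with flanks of 1 Mb. Speer4 regions had a median of 347 bp (95% interval of the median 306 to 402), against 205 bp (191 to 222) in the flanks; 16.8% were under 200 bp, against 41.5%. The medians were 289 bp (272 to 315) against 322 bp (283 to 372) for Zfp, 314 bp (278 to 354) against 282 bp (244 to 319) for defensin and 282 bp (255 to 319) against 300 bp (256 to 332) for Sp100-like, with intervals that overlap. These intervals cover counting error only, and neighbouring regions are not independent. Over all assembled chromosomes the median width was 294 bp, so the Speer4 flank regions were narrow beside the genome as well. The Speer4 width ratio was 1.69 to its flanks and 1.2 to the rest of its chromosome. The widest members, of 2008 and 2004 bp, both lay in the pseudogene Speer4cos. The widest in each of the other windows were 1697 bp outside any gene (defensin), 1550 bp where Zfp600, Vmn2r-ps17 and Gm13165 overlap (Zfp), and 1436 bp in A530040E14Rik and Gm35498 (Sp100-like). The narrowest in each window were 95 bp in Zfp978, 99 bp in A530032D15Rik, 109 bp outside any gene in the defensin window, and 124 bp in Pclo.

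A smaller share of members than of flank regions lay at the ends of protein-coding genes, although such regions were more numerous per Mb in the windows. A region was counted there when it came within 1 kb of the annotated start or end of the gene, inside or outside it, since the gene table gives no strand. In the windows 53 of 692 regions did so (7.66%, 95% exact interval 5.79 to 9.9), against 105 of 587 in the flanks (17.9%, 14.9 to 21.2). The background over all regions on assembled chromosomes was 18.5%. The share was 10.1% against 21% for Zfp, 3.85% against 20.3% for defensin and 4.76% against 17.4% for Sp100-like. Speer4 ran the other way, at 8.39% (4.54 to 13.9) against 1.89% (0.0478 to 10.1), where the flanks had 1 region at a gene end and the intervals overlap. Against the rest of its chromosome, the ratio for Speer4 was 0.447. With genes of every kind, pseudogenes included, the share was 18.4% in the windows and 21.1% in the flanks, against a background of 23.8%.

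**Figure D3:**
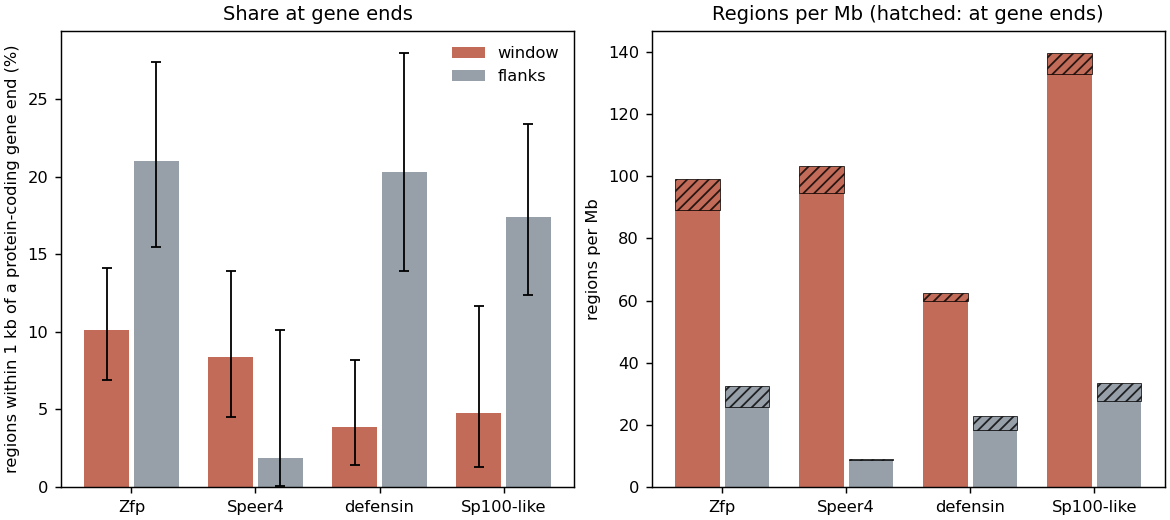
Left, share of regions (%) within 1 kb of an end of a protein-coding gene, with 95% exact binomial intervals, for each window (red) and its flanks (grey); right, regions per Mb, with those at gene ends hatched. In the Zfp, defensin and Sp100-like windows the share is below that of the flanks, and most of the added regions per Mb lie away from gene ends, at 84.1 per Mb in the windows pooled.

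Per Mb, regions at gene ends numbered 6.97 in the windows and 4.38 in the flanks, and those away from them 84.1 in the windows and 20.1 in the flanks. In the defensin window alone regions at gene ends were fewer per Mb than in the flanks, at 2.4 against 4.67. Members at gene ends had a median width of 344 bp, against 625 bp for regions at gene ends in the flanks and 715 bp in the genome. Away from gene ends the median was 301 bp in the windows and 255 bp in the flanks. Pseudogenes held 143 members (20.7%), against 5 flank regions (0.852%) and 1.27% of regions on assembled chromosomes. The count was 59 in the Zfp window, 38 in the defensin window, 27 in the Speer4 window and 19 in the Sp100-like window. Members in a pseudogene and in no protein-coding gene numbered 96 (13.9%), against 5 in the flanks (0.852%). The windows held 109 pseudogenes over 7.6 Mb and the flanks 103 over 24 Mb. How much of either lies inside pseudogenes was not computed, so the shares were not set against it. A region lay at an end of 45 of 109 pseudogenes in the windows (41.3%), against 6 of 103 in the flanks (5.83%) and a background of 7.39% over all pseudogenes. Such a count depends on the density of regions on which the windows were selected. The count was 22 of 56 against 3 of 33 for Zfp, 12 of 39 against 0 of 18 for defensin, 3 of 5 against 1 of 27 for Speer4 and 8 of 9 against 2 of 25 for Sp100-like. Long non-coding RNA genes held 8.82% of members and 6.47% of flank regions, against 11.2% of regions on assembled chromosomes. The Speer4 window stood above that share, with 32 members (20.6%) against 0 regions in its flanks. The Zfp, defensin and Sp100-like windows lay below it, at 6.4%, 4.49% and 3.57%.

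In the Zfp window most zinc finger genes carried regions. Of 28 protein-coding genes, 22 (78.6%) had a region at an end, against 41 of 92 (44.6%) in the flanks and a background of 52.6% over all protein-coding genes. This count also depends on the density on which the window was selected. Of the 17 with a Zfp symbol or Rex2, 14 did, and all 17 had a region in the gene body. Gene models can overlap, so 1 region can count in several genes. Zfp978 held the most, 56 regions over 267 kb, with widths from 95 to 1020 bp, a median of 280 bp and a median gap of 1.93 kb. The gene model of Zfp993 is longer, at 479 kb, and held 25 regions with a median gap of 6.09 kb. The vomeronasal receptor pseudogene Vmn2r-ps16 held 26 over 160 kb. Zfp982 and Zfp991 had 10 regions each, Zfp984 had 8, Zfp992 had 7 and Zfp981 had 5. Zfp992 was the most closely filled of these, at 3.43 regions per 10 kb, against 1.34 for Zfp981. Gm13212, with 3 regions in its body, carried one of the widest members at its start, of 1495 bp, over all 300 bases of the promoter. The 3 family genes without a region at an end were Rex2 with 5 regions in the body, Zfp600 with 7 and Zfp980 with 5.

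Single-copy genes at the borders of the Zfp window also carried regions. Tnfrsf1b, the type 2 receptor of tumour necrosis factor, had 7 regions over 34.5 kb with a median width of 686 bp. Tnfrsf8, which encodes CD30, had 3, and Mfn2, a mitochondrial fusion protein, had 3. Vps13d, the first gene of the window, had 10 regions with a median width of 500 bp. The promoters of Tnfrsf1b and Mfn2 were covered over all 300 bases and that of Tnfrsf8 over 229. Of 2 promoters of Vps13d, 1 was covered, over all 300 bases. The last gene, Nppb, which encodes a natriuretic peptide, had 0 regions, the nearest lying 7.18 kb away.

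In the Speer4 window 27 regions lay in pseudogenes, 32 in long non-coding RNA genes and 22 in protein-coding genes, and 83 of 155 (53.5%) lay outside any gene. Speer8-ps1 held 15 regions over 33.2 kb, which covered 20.3% of it, and Speer4cos held 12 over 33.9 kb, which covered 22.6%. The long non-coding RNA gene Gm30613 also held 12. Of 11 protein-coding genes, 7 had a region at an end (63.6%, 95% exact interval 30.8 to 89.1), against 1 of 17 in the flanks (5.88%). The background over all protein-coding genes was 52.6%, inside that interval, so the flanks and not the window stood apart from it. Speer4c had 4 regions in a body of 4.79 kb, Gm21190 had 3, Gm10354 had 2, and Gm9758, Gm21083 and Speer4e had 1 each. Speer4d had 0 in its body and the nearest region 0.498 kb away. Pclo, a presynaptic scaffold protein gene and the first of the window, had 6 narrow regions over 349 kb, with a median of 186 bp.

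The defensin label went against the data. Between the first and the last gene named Defa or Defb, chr8:20892667-21948622, there were 10 regions (9.47 per Mb), and 0 of them lay inside any gene. The other 146 lay in the 1.39 Mb below the first defensin gene, at 105 per Mb. Of 29 Defa genes, 0 had a region at an end, which allows a share of up to 10.3% by 3 counts of the total and 11.9% by the exact interval, and of 10 Defb genes only Defb35 did, with a region 0.762 kb away. None of the 39 had a region in the body. Defa17, Defa2 and Defa20 lay 88.7, 40.2 and 171 kb from the nearest region, and Defa-ps8 lay 65.9 kb away. The longest stretch without a region, 407092 bp at chr8:21338306-21745397, held Defa2, Defa20, Defa17 and Defa24 among others. Fewer regions in the list and fewer reads assigned to near-identical sequence cannot be told apart here.

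Below the defensin genes the regions lay among pseudogenes and genes known by number: 83 of 146 (56.8%) were outside any gene, 38 were in pseudogenes and 18 in protein-coding genes. The pseudogenes 2610005L07Rik and 6820431F20Rik held 12 and 9 regions. The protein-coding 4930467E23Rik held 8 over 49.3 kb and 9530057J20Rik held 5, with a median width of 660 bp. Gm40469 held 1. Atp7b, a copper-transporting ATPase gene that crosses the upper border of the window, held 2 regions in its body, and these and its region at a gene end lay beyond the window. In the whole window 5 of 51 protein-coding genes (9.8%) had a region at an end, against 24 of 56 in the flanks (42.9%) and a background of 52.6%.

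In the Sp100-like window most regions lay inside protein-coding genes, and few at the ends of such genes. Of 84 regions, 68 (81%) lay in the body of a protein-coding gene, against 127 of 201 (63.2%) in the flanks and 54.8% over assembled chromosomes. The models of Gm7592 and Gm38510 span 229 and 154 kb of this 0.6-Mb window. How much of the window lies inside protein-coding models was not computed, so the share was not set against it. Only 2 of 8 protein-coding genes, Gm7592 and Gm7609, had a region at an end (25%), against 27 of 72 (37.5%) in the flanks. With genes of every kind, 18 of 84 regions (21.4%) lay at a gene end, and the share in the flanks was also 21.4%. Gm7592 held 26 regions over 229 kb, Gm38510 held 23 over 154 kb and C130026I21Rik held 12 over 41.6 kb. A530032D15Rik was the most closely filled of the protein-coding genes, with 11 regions over 22.2 kb, or 4.96 per 10 kb. Sp110 held 11 and Sp140, the last gene, held 9; both models reach past the window and overlap, so they share regions. The region over the Sp110 promoter did not count at a gene end, because this start lies inside a longer gene model. Sp140 likewise had a region over its promoter and none counted at an end.

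Where promoter sequence was at hand, regions covered promoters of the windows in 22 of 100 cases (22%), against 81 of 302 (26.8%) in the flanks and a background of 35% of 32851 promoters. The count was 15 of 40 for Zfp, 4 of 15 for Speer4, 1 of 39 for defensin and 2 of 6 for Sp100-like. From the first to the last gene of the Zfp family the count was 5 of 26 (19.2%), and the other 10 covered promoters of that window lay outside this span, at genes such as Mfn2 and Tnfrsf1b. Covered promoters held a median of 9 CpG per 300 bases in the windows and 22 in the flanks. The median was 13 for Zfp and 0 for Speer4. Of the promoters in the windows, 30 of 100 shared more than 50% of their 50-base words with another gene's promoter, against 17 of 302 (5.63%) in the flanks and 3.61% of all promoters. A region covered 3 of these 30 (10%), all 3 in the Speer4 window, and 19 of the 70 that shared less (27.1%). The shares were 17.6% and 27.4% in the flanks and 5.06% and 36.1% over all promoters. The Speer4 window ran the other way, with 3 of 7 (42.9%) against 1 of 8 that shared less (12.5%). The counts were 0 of 16 against 1 of 23 for defensin, 0 of 4 against 15 of 36 for Zfp and 0 of 3 against 2 of 3 for Sp100-like.

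**Figure D4:**
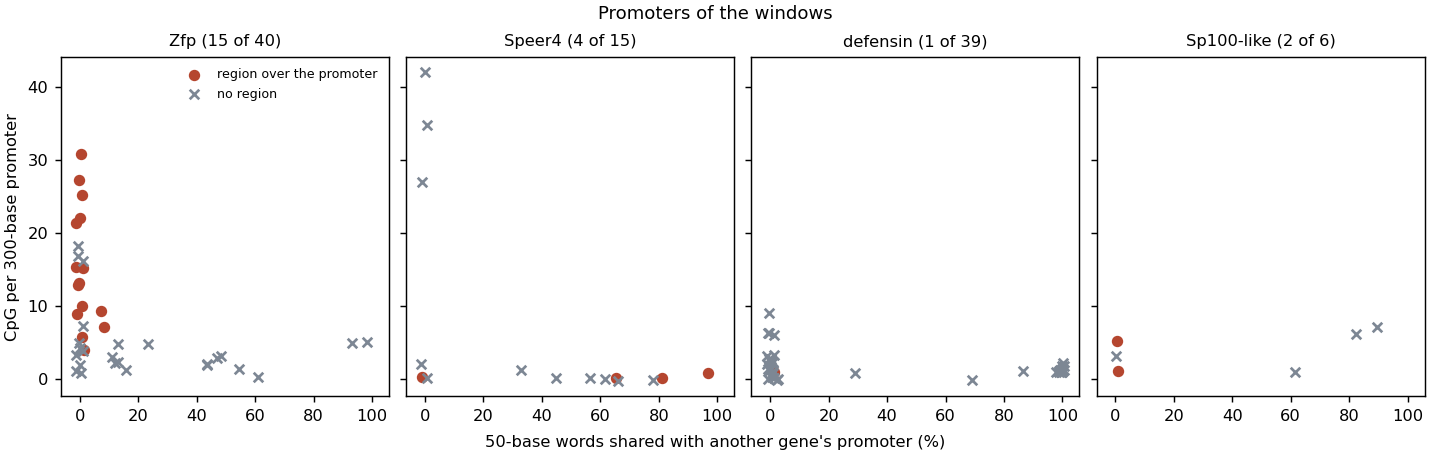
CpG per 300-base promoter (y axis) against the percentage of its 50-base words found in another gene's promoter (x axis), 1 point per promoter with a small random offset, for the 4 windows; red circles have a region over the promoter and grey crosses have none. Titles give covered promoters of all; in the Zfp window covered promoters share few words, whereas 3 Speer4 promoters with over 50% shared words are covered.

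Groups of similar promoters, joined by any pair at least 80% identical, were covered in part or not at all. A group of 9 Speer-type promoters, 96.6 to 99.1% identical in pairs (median 97.7%, 36 pairs), had 3 covered members: Speer4c, Gm21190 over 300 bases by a region of 1110 bp, and Gm9758 over 269 bases. The 6 without a region were Gm10354, Gm17019, Gm21083, Gm21149, Speer4d and Speer4e. A group of 12 zinc finger promoters (80.2 to 100%, median 90.2% over the 61 pairs of at least 80%) had 4 covered members, Gm13212, Zfp984, Zfp985 and Zfp988. Gm13212 and Zfp984, both covered, were 96.8% identical. Zfp600 and Rex2 were 100% identical over 299 bases, and neither was covered. A group of 17 promoters, 16 of them Defa (80.4 to 100%, median 84.7% over the 130 pairs of at least 80%), had 0 covered. In the whole defensin window 1 of 39 promoters was covered. A530032D15Rik and C130026I21Rik shared 100% over 279 bases, and neither was covered although their gene bodies held 11 and 12 regions.

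Short motifs were searched on both strands in the 100 promoters of the windows. The GC box GGGCGG was found in 24, against 35.7% of all promoters: 19 of 40 Zfp promoters, 3 of 6 Sp100-like ones and 0 of 39 defensin ones. CCAAT was found in 55, against 37.4% of all: 25 of 39 defensin promoters, 20 of 40 Zfp, 9 of 15 Speer4 and 1 of 6 Sp100-like. Many of these promoters are similar copies, so their matches are not independent. TGANTCA, the AP-1 core, was found in 12 (7.81% of all), 8 of them in the defensin window. The interferon response core (GAAA, any 2 bases, GAAA) was found in 3 (3.44%) and the ETS core CCGGAAG in 2 (8.86%). A match is a run of letters and not a bound site.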

How the data were processed

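The deposited file is 1 joint list of regions in 3 columns (sequence name, start, end), without score, count or library; no unit of signal is given, and positions are the only values, per the file itself and the labels of all 4 libraries. Per the submitters' processing notes, the tools were MACS3 3.0.0b1, SAMtools 1.15.1, Bowtie2 2.5.08 and fastp 0.12.4, and the build was mm10. The sources used here give neither their settings nor the joining of libraries, nor the treatment of duplicate reads, of the transposase offset, of reads that match several places or of problem regions.

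Positions were converted to 1-based coordinates. Gene positions and promoter sequences came from RefSeq tables of GRCm38.p6 (21887 protein-coding genes, 32851 promoters); no genome sequence was used, so likeness of sequence outside promoters was not computed. A region counted in a window, gene or promoter with 1 bp of overlap. Shares have 95% exact Clopper-Pearson intervals, medians order-statistic intervals; both cover counting error only. The planned test of Ddx55 KO against WT needs values per library and was not made.

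The members and lists were chosen with earlier results of these data known. Genes were named by a rule: in each window, up to 12 protein-coding genes with a region at an end, up to 4 family genes without one, the 3 genes with the most regions, the first and last gene, and the widest, narrowest and closest regions. Promoter groups, Zfp534, Gm17019, Gm21149, Zfp985, Zfp988 and genes within long stretches were named after their values were seen. Overlap, gap and gene-end counting was tested on simulated data. Alternatives were other flanks, joined or wider regions, other gene-end distances, start sites only, genes of every kind, trimmed windows, and each window left out. Unplanned ones were the defensin window below its first defensin gene and regions counted by their middle. Python 3.11.15, NumPy 2.4.6, pandas 2.3.3, SciPy 1.17.1, Biopython 1.88 and Matplotlib 3.10.9 were used.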

Additional observations from a re-analysis of the deposited data

How the results depend on the processing

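No paired analysis was possible because the list carries no value per library; for the same reason no replicate could be left out. The density ratio of windows to flanks (3.72) was 3.14 with flanks of 1 Mb and 2.97 with regions joined over 1000 bp. It was 2.97 without the Speer4 window and 4.21 without the defensin window. With windows trimmed to their family it was 2.69, but the flanks then took in what was trimmed off and held 836 regions against 587. With only the part of the defensin window below its first defensin gene it was 4.32, an alternative chosen after seeing the data. The width ratio (1.07) turned to 0.959 with flanks of 1 Mb and to 0.967 without the Speer4 window, and was 1.23 with regions joined over 1000 bp, 1 for regions of 200 bp or wider and 1.18 without the Zfp window. The gap ratio (0.168) was 0.231 with regions joined over 1000 bp. The gene-end share ratio (0.428) was 0.317 with flanks of 1 Mb, 0.313 with 500 bp, 0.614 with 2 kb, 0.869 with genes of every kind and 0.579 with trimmed windows. Genes with a region at an end (36 of 98) numbered 23 of 73 with start sites only and 91 of 237 with genes of every kind. In single windows, 110 of 157 alternatives counted as unchanged, 39 moved and 8 turned direction. The unchanged ones include regions counted by their middle, which gave the same values as the main setting in every window. Gene counts were compared without their totals, which change with start sites only and with genes of every kind. A ratio counted as unchanged inside the interval of the value given, and a gene count, which has no interval, within a fixed factor. Where the interval is wide, unchanged does not mean close. The Speer4 gene-end ratio of 4.45 (2.41 to 7.38) counted as unchanged at 2.64, with regions of 200 bp or wider. For the Sp100-like gene-end ratio the interval was 0.0754 to 0.675. The Speer4 gene-end ratio turned to 0.447 against the rest of its chromosome (4.45 against its flanks). The defensin density ratio turned to 0.215 with the window trimmed (2.71). The defensin width ratio turned to 0.813 with flanks of 1 Mb and 0.854 trimmed. The Sp100-like width ratio turned to 1.01 against the rest of the chromosome, 1.19 joined over 1000 bp and 1.08 trimmed. The Sp100-like gene-end ratio turned to 1 with genes of every kind. The cause was not tested. Unknown depth limits every statement on stretches without regions.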

Other observations

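Of the 18 bins of 100 kb with at least 17 regions, 7 lay outside the 4 windows. The densest of these held 30 regions at chr11:3100001-3200000. Next came 22 regions each at chr17:3000001-3100000 and chr6:47700001-47800000, and 21 at chr9:3000001-3100000. The bins on chromosomes 17, 9 and 11 lie near the start of the assembled chromosome. These bins were named after their values were seen.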
